A study of Homo sapiens with 4 samples.

Results

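Heat shock proteins and their DNAJ partners were followed in human cells labelled PANC-1, a pancreatic ductal adenocarcinoma line, after knockout of CFL1, the gene of the actin-severing protein cofilin-1. The genes were taken by symbol from the authors' deposited table: every numbered DNAJA, DNAJB, DNAJC, HSPA and HSPB gene, with HSPH1, HSP90AA1, HSP90AB1, HSP90B1, HSPD1, HSPE1, HSF1 and HSF2. This gave 74 of 59885 genes. They comprised 43 J-domain genes (4 DNAJA, 13 DNAJB and 26 DNAJC), 15 HSPA, 8 HSPB, 3 HSP90, HSPH1, HSPD1, HSPE1 and the 2 heat shock factors. Total RNA was sequenced from 2 control libraries, whose genotypes are labelled control1 and control2, and from 2 knockout libraries, both labelled KO CFL1. All 4 carry the same cell line name, and no treatment or time point is stated. The labels name neither the guide nor a clone, nor do they say whether libraries of a group came from separate cultures, so every p-value here reflects only how far single libraries lay apart, which may be technical.

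Chaperones bind unfolded or partly folded proteins and keep them from aggregating. In the HSP70 cycle, a J-domain protein (DNAJ) delivers a client and stimulates the ATPase of an HSPA protein, a nucleotide exchange factor such as HSPH1 resets it, and some clients pass on to HSP90. Small heat shock proteins of the HSPB family hold unfolding proteins without using ATP, HSPD1 and HSPE1 form the mitochondrial folding chamber, and heat shock factor 1 switches on many of these genes when proteins misfold. Actin, the substrate of cofilin, itself needs the chaperonin CCT to fold.

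The deposited table has no column for single libraries, so the reads of each were solved from the authors' base means, and the libraries are called control A, control B, knockout A and knockout B. The letters are names only: they do not tell control1 from control2, and they pair no libraries. The recovered reads summed to between 15219822 and 18428369 per library. CFL1 itself stood at 6276 and 13761 normalized counts (reads divided by the authors' size factors) in the controls. The knockouts had 2285 and 2487, and the authors' deposited table lists a log2 fold change of -2.07 (SE 0.45, DESeq2 adjusted p = 0.00168). The control libraries were unlike each other. At a base mean of at least 10, control B and control A differed at least 2-fold for 44.9% of 17298 genes, and the knockouts differed that much for 4.08%. KRT19, a duct keratin used as a marker of this line, had 2481 normalized counts in control B, 1.82 in control A and 0 in both knockouts. Of the other 5 markers, KRT8, KRT18, VIM and SOX9 were read in all 4 libraries and were highest in control B, while KRT7 was lowest there (108 normalized counts, against 3551 to 4000.4 elsewhere). The 4 acinar and 3 islet markers were at 0 throughout, and the leukocyte markers PTPRC and CD3E reached at most 1.12, with CD14 at 9.09, 36.9, 8.85 and 9.71 in control A, control B, knockout A and knockout B. Of the fibroblast markers, COL1A1 (354 to 1574) and COL3A1 (26.4 to 279) were highest in control B, COL1A2 and DCN reached at most 4.43, and LUM was at 0. The epithelial markers CDH1 (2.16 to 164) and EPCAM (6.36 to 42.5) were also highest in control B. The endothelial markers VWF (8.94 to 21.8) and CDH5 (0 to 16.4) were highest in control A and lowest in control B. The part of these differences between the controls in the results was not tested, and each comparison is therefore also given against each control alone.

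Of the 74 genes, 66 had a base mean of at least 10, 6 had a lower one and 2, HSPB3 and DNAJB3, were at 0. A filter on abundance keeps a gene that is high in 1 group alone, so counts over the 66 describe the genes measured, not the whole family. Per kilobase of the longest annotated transcript, HSPA8 had the highest base mean (14192 normalized counts per kilobase), ahead of HSP90AB1 (12035), HSP90AA1 (6861), HSPD1 (6184), HSPA5 (5575) and HSP90B1 (3920). HSPA8 led through control B (31486 per kilobase, against 19115 for HSP90AB1). In the other 3 libraries (control A, then the knockouts) it had 10023, 7267 and 7993 normalized counts per kilobase, under the 10385, 9116 and 9525 of HSP90AB1. These 6 genes are the constitutive HSP70 of the cytosol, both cytosolic HSP90 forms, the mitochondrial chaperonin and the HSP70 and HSP90 of the endoplasmic reticulum.

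Heat shock factors bind repeats of GAA and its inverse TTC spaced by 2 bases. Promoters were taken from RefSeq (GRCh38.p14, a different build from the hg19 of the deposited table), as the 250 bases before each gene's start, and 64 of the 74 genes matched. Arrays of 3 such units in alternating order stood in 6 of these 64 promoters (9.38%) and in 155 of all 35116 promoters (0.441%). Arrays were searched on both strands, where the form starting with GAA and the form starting with TTC are each other's complement in reverse, and overlapping arrays were merged. They are shown because 5 of the 6 genes are among the most abundant or most different members below. Capitals mark the array in each stretch, which is printed 5′ to 3′ on the gene's strand.
HSPA8, chr11:123062154-123062216, minus strand, array 43 to 55 bases before the start: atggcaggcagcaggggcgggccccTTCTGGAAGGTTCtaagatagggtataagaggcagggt
HSPA8, chr11:123062329-123062386, minus strand, array 218 to 230 bases before the start: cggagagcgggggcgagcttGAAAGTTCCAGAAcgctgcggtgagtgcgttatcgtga
HSP90AB1, chr6:44247806-44247868, plus strand, array 100 to 112 bases before the start: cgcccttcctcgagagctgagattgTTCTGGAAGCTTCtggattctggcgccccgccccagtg
HSP90AB1, chr6:44247753-44247815, plus strand, array 153 to 165 bases before the start: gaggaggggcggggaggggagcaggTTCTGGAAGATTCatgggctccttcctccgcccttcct
HSP90AA1, chr14:102087095-102087157, minus strand, array 76 to 88 bases before the start: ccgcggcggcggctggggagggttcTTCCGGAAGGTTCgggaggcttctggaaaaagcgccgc
DNAJB6, chr7:157336848-157336910, plus strand, array 119 to 131 bases before the start: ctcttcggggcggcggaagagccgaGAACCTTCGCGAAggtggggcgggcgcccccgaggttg
HSPA6, chr1:161524441-161524503, plus strand, array 62 to 74 bases before the start: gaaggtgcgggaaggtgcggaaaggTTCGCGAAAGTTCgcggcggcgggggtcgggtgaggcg
HSPD1, chr2:197500043-197500090, minus strand, merged arrays 228 to 245 bases before the start: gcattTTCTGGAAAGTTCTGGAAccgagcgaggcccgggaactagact
The match describes these letters only; no binding was measured here, and the absence of an array from a window says nothing of the factor. Of the 6 genes, 4 (HSPA8, HSP90AA1, HSP90AB1 and DNAJB6) had both knockouts below both controls (21.2% of all genes did), HSPD1 had both above, and the HSPA6 groups overlapped. Scaled by total reads, HSP90AA1 overlapped too. The median difference of the 6 on log2(normalized count + 1) was -0.17 when control A alone was used and -1.30 with control B alone. For the 53 measured genes with a promoter and no array of 3 units, those medians were 0.04 and -0.26.

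No chaperone gene was called. The authors' deposited table gives an adjusted p for 65 of the 74 genes, and 0 of them were under 0.05, beside 0.559% of all 16629 genes with one. The smallest belonged to HSPA8, at a DESeq2 adjusted p of 0.256. At an unadjusted p under 0.05 and a base mean of at least 10, the authors' deposited table had 2 of 66 genes higher in the knockouts (HSPB1 and HSPA13; background 3.07%) and 4 lower (HSPA8, DNAJB1, HSPA1A and DNAJB6; background 9.43%). These are 3.03% and 6.06% of the chaperone genes, so neither count exceeded the share over all genes. In the authors' deposited table the 66 genes had a median log2 fold change of -0.11, beside -0.02 for all genes with that base mean, and single genes ran from -1.58 (HSPA6) to 1.24 (DNAJC22).

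**Figure D1:**
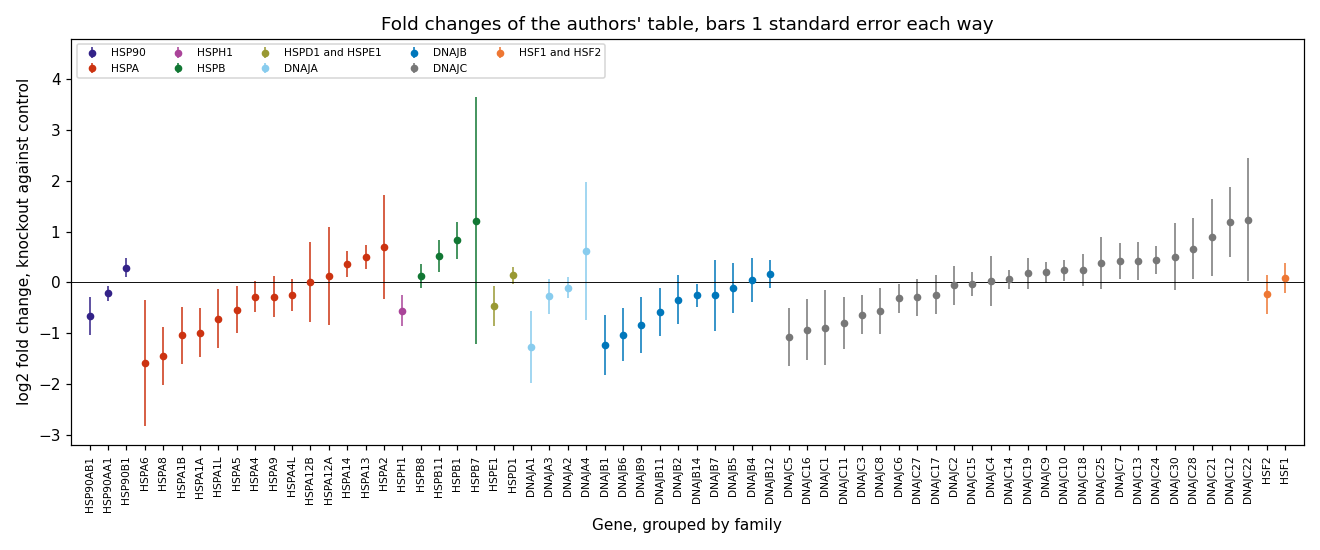
The log2 fold change of knockout against control from the authors' deposited table (vertical axis) is plotted for the 66 measured genes, grouped by family, with bars of 1 standard error each way from 2 libraries per group. The HSPA and DNAJB genes lie mostly below 0 (medians -0.28 and -0.30), the 4 HSPB genes lie above it (median 0.68), and the DNAJC genes run from -1.08 to 1.24. From control A alone, the median differences on log2(normalized count + 1) were -0.0068 for HSPA, -0.059 for DNAJB and 0.33 for HSPB. From control B alone they were -0.62, -0.62 and 0.93.

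Separation of the libraries gave the same reading. Both knockouts lay above both controls for 16 of 66 genes (24.2%; background 23.7%) and below both for 14 (21.2%; background 21.2%), and 36 overlapped. Scaling by total reads in place of the authors' size factors raised differences from control B by 0.34 on the log2 scale, less where counts were low, and the counts became 19 higher (25.8% of all genes) and 11 lower (18% of all genes). Under that scaling DNAJB12, DNAJC14 and HSF1 joined the higher genes, and HSP90AA1, DNAJC6 and DNAJC27 no longer separated. In bulk RNA, fewer cells with a transcript and less of it per cell cannot be told apart.

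**Figure D2:**
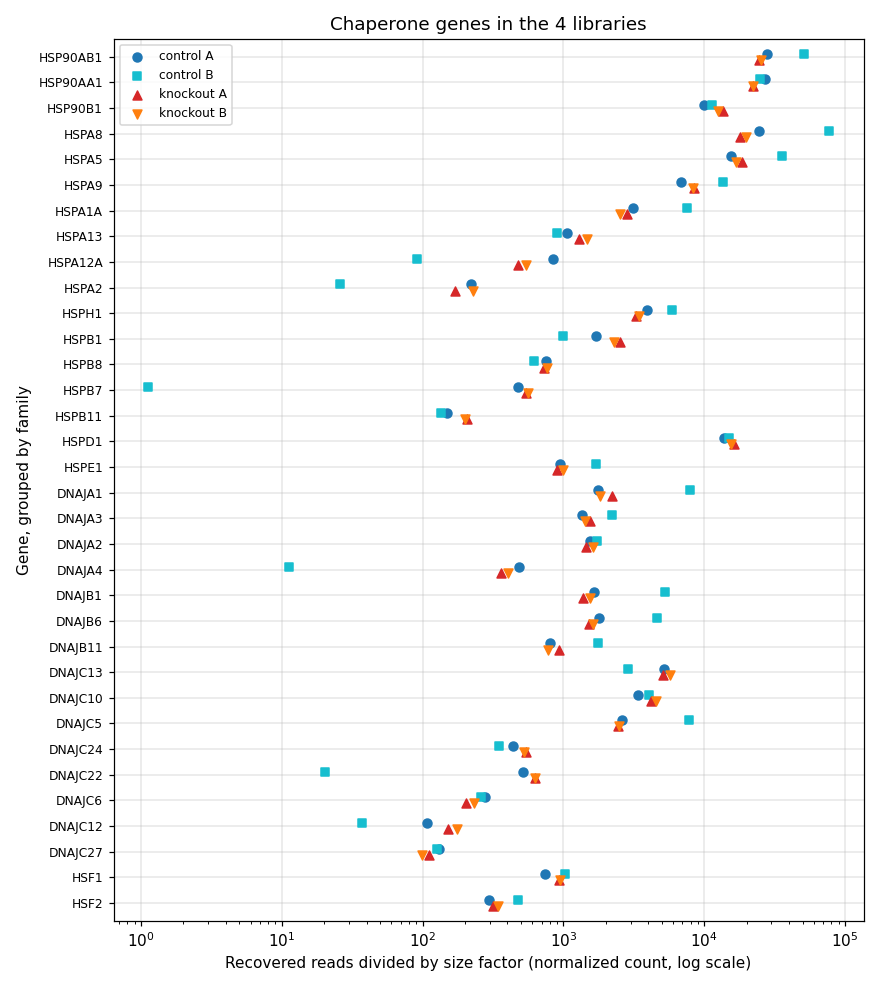
Normalized counts (recovered reads divided by size factor, log scale on the horizontal axis) are plotted for 34 chaperone genes (the most abundant of each family, those with the lowest p and those with the largest separations or differences between controls), 1 symbol per library. The knockouts (triangles) sit near control A (circles) in most rows, while control B (squares) lies far to the right for HSPA8, DNAJA1 and DNAJB1 and far to the left for HSPB7, DNAJC22 and DNAJA4.

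In the 4 values of each gene below, the order is control A, control B, knockout A, knockout B, in normalized counts. HSPA8, the constitutive HSP70 of the cytosol (HSC70), which also strips clathrin from vesicles, read 24688, 77551, 17898 and 19687. Both knockouts were below both controls, 1.31-fold below control A and 4.13-fold below control B when averaged. The authors' deposited table lists -1.44 for HSPA8 on the log2 scale (SE 0.57, DESeq2 adjusted p = 0.256). Control B stood 3.14-fold above control A. HSP90AB1, the constitutive HSP90, read 27770, 51113, 24377 and 25471, again with both knockouts under both controls. For HSP90AB1 the authors' deposited table lists a log2 fold change of -0.66 (SE 0.37, DESeq2 adjusted p = 0.446).

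The stress-inducible HSP90AA1 was steadier across the controls, at 26884, 24879.8, 22351 and 22211. Averaged, the knockouts were 1.21-fold below control A and 1.12-fold below control B, a separation that was absent when libraries were scaled by total reads. The log2 fold change listed in the authors' deposited table was -0.22 (SE 0.15, DESeq2 adjusted p = 0.547). HSPH1, an HSP110 that exchanges nucleotide on HSP70, read 3953, 5901, 3262 and 3448, and both knockouts were below both controls. The authors' deposited table gave it -0.55 (SE 0.30, DESeq2 adjusted p = 0.421). Its relative HSPA4 read 4095, 6212, 4221 and 4256, so that the knockouts exceeded control A and were under control B. HSPA4L, a further HSP110, had its highest value in control A and read 2657, 1748, 1761 and 1966.

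HSPA1A and HSPA1B, the heat-inducible HSP70 pair, are nearly identical in sequence, so reads may be divided between them and their single values are uncertain. HSPA1A read 3147, 7532, 2838 and 2542, with both knockouts lowest. HSPA1B read 2604, 7796, 2522 and 2515, and there the knockouts averaged 1.03-fold below control A. Summed, the pair took 0.0361%, 0.0744%, 0.0333% and 0.0308% of the recovered reads. HSPA1A is listed in the authors' deposited table with a log2 fold change of -0.99 (SE 0.49, DESeq2 adjusted p = 0.38). HSPA6, a strictly heat-induced HSP70, was scarce at 8.18, 74.9, 11.5 and 16.2. The knockouts exceeded control A and were 5.41-fold below control B. HSPA7, its close copy listed as a separate gene, had a base mean under 10. HSPA1L, a testis-rich relative, read 70.9, 135, 56.7 and 69.0.

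Among 7 measured stress-inducible genes of the cytosol and nucleus (HSPA1A, HSPA1B, HSPA6, DNAJB1, HSPB1, HSPH1 and HSP90AA1), 5 had both knockouts under both controls (background 21.2%) and 1, HSPB1, had both over them (background 23.7%). One of the 5, HSP90AA1, overlapped under scaling by total reads. By the authors' deposited table their median log2 fold change was -0.99. The median difference was -0.17 from control A alone and -1.49 from control B alone. This grouping was made with earlier results of these data known, and 0 of the 7 were called.

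Among the HSPB genes, HSPB1 (HSP27), an actin-associated holdase, read 1709.5, 998, 2516 and 2303, with both knockouts above both controls. The knockout mean was 1.41-fold that of control A and 2.41-fold that of control B. A log2 fold change of 0.83 stands in the authors' deposited table (SE 0.36, unadjusted p = 0.0222, DESeq2 adjusted p = 0.315). HSPB11, an intraflagellar transport protein that shares the family's symbol, read 149, 134, 207 and 201, a further case of full separation, and the authors' deposited table gave it 0.53 (SE 0.32, DESeq2 adjusted p = 0.478). HSPB8, which works with BAG3 in the autophagy of misfolded proteins, overlapped at 754, 621, 734 and 766.

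HSPB7, a small heat shock protein known from heart and muscle, differed mainly between the controls. Its values were 477, 1.12 (a single read), 546 and 565. The authors' deposited table lists a fitted log2 fold change of 1.22 (SE 2.43, DESeq2 adjusted p = 0.828). The other 4 members of the family were at or near 0: HSPB3 had no read, and HSPB2, HSPB6 and HSPB9 had base means under 10. With 4 of 8 genes measured, the HSPB genes had a median of 0.68 among the log2 fold changes of the authors' deposited table, and 3 of the 4 lay above both controls (background 23.7%). HSPB8 did not, and 0 of the 4 were called. The median difference of the 4 was 0.33 from control A alone and 0.93 from control B alone.

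J-domain proteins of class A resemble bacterial DnaJ and serve HSP70 broadly. DNAJA1, a partner of HSPA8, read 1772, 7938, 2212 and 1808. Only control B stood out, at 4.48 times control A, and the knockouts were at or slightly above control A. The authors' deposited table gave DNAJA1 a log2 fold change of -1.27 (SE 0.71, DESeq2 adjusted p = 0.442). DNAJA2 was level at 1554, 1721, 1442 and 1610.0. DNAJA3, which works in mitochondria, read 1363, 2231, 1546 and 1429. DNAJA4 read 484, 11.2, 359 and 402, so that control B alone was low. In 0 of the 4 class A genes did the groups separate (background 23.7% higher and 21.2% lower).

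In class B, DNAJB1 (HSP40), the partner of inducible HSP70 and a target of heat shock factor 1, read 1656, 5231, 1384 and 1556. Both knockouts were below both controls, 1.13-fold below control A and 3.56-fold below control B. DNAJB1 has a log2 fold change of -1.23 by the authors' deposited table (SE 0.59, DESeq2 adjusted p = 0.372). DNAJB6, a suppressor of polyglutamine aggregation, followed the same order at 1783, 4640, 1519 and 1625. For DNAJB6 the authors' deposited table gave -1.03 (SE 0.52, DESeq2 adjusted p = 0.393). DNAJB14, a membrane J-domain protein of the endoplasmic reticulum, also separated, at 975, 1174, 881 and 917. DNAJB2 read 540, 1209, 684 and 698, and DNAJB4 read 743, 390, 557 and 613, so that the knockouts lay between the controls for both. Of 10 measured class B genes, 3 lay lower than both controls (background 21.2%) and 0 higher (background 23.7%). Against control A 5 were above and 5 below, while against control B 9 were below.

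Chaperones of the endoplasmic reticulum lay on both sides. HSPA5 (BiP), which binds nascent secretory proteins and holds the stress sensors inactive, read 15607, 35967, 18681 and 16894. The knockouts were above control A and 2.02-fold below control B, and the authors' deposited table gave -0.54 (SE 0.47, DESeq2 adjusted p = 0.626). HSP90B1 (GRP94), the HSP90 of this compartment, read 10051, 11317, 13566 and 12609.6, with both knockouts above both controls. HSP90B1 is listed at 0.29 on the log2 scale by the authors' deposited table (SE 0.18, DESeq2 adjusted p = 0.49). HSPA13 (STCH), a microsomal HSP70 relative, read 1063, 898, 1284 and 1477. That separation corresponded to 0.49 in the authors' deposited table (SE 0.24, unadjusted p = 0.0357, DESeq2 adjusted p = 0.363).

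The J-domain partners of BiP differed among themselves. DNAJC10 (ERdj5), a disulfide reductase that aids degradation, read 3389, 4074, 4222 and 4576, higher in both knockouts. DNAJC3 (p58IPK), a co-chaperone that also restrains the stress kinase PERK, read 1927, 3505, 1716 and 1784, lower in both. DNAJB9 (ERdj4) read 395, 1025, 404 and 387, and DNAJB11 (ERdj3) read 806, 1750.3, 936 and 778. In both of these genes control B alone was high, and the knockouts were near control A. Over 11 measured genes of this compartment, 3 lay higher than both controls (background 23.7%), 2 lower (background 21.2%) and 6 overlapped. Measured from control A their median difference was 0.19, and from control B it was -0.38.

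In mitochondria, HSPD1 (HSP60) read 13879, 15021, 16259 and 15566. Both knockouts were above both controls, by 1.15-fold over control A and 1.06-fold over control B, and the authors' deposited table gave 0.14 (SE 0.16, DESeq2 adjusted p = 0.707). HSPE1 (HSP10), the lid of the same chamber, read 946, 1700.0, 907 and 1002, high in control B alone. HSPA9 (mortalin), the HSP70 that drives import, read 6894, 13568, 8522 and 8318. The knockouts were 1.22-fold above control A and 1.61-fold below control B. DNAJC28 read 22.7, 22.4, 31.9 and 39.9, with controls that nearly coincided. DNAJC19, of the import motor, read 255, 208, 274 and 251, and DNAJC15 read 358, 376, 365 and 352. Of 9 measured mitochondrial genes 2 lay higher than both controls (background 23.7%), 0 lower (background 21.2%) and 7 overlapped.

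Class C joins proteins whose J domain sits in an otherwise unrelated protein. DNAJC13 (RME-8), an endosomal protein that works with HSPA8, was its most read member at 5147, 2879, 5082 and 5698. DNAJC5, the cysteine string protein of secretory vesicles, read 2613, 7793, 2452 and 2486. The knockouts averaged 1.06-fold below control A and 3.16-fold below control B, and the authors' deposited table gave -1.08 (SE 0.57, DESeq2 adjusted p = 0.415). DNAJC6 (auxilin), which recruits HSPA8 to clathrin coats, read 277, 260.4, 203 and 231. DNAJC27, a small GTPase with a J domain, read 131, 126, 111 and 99.2. For DNAJC6 and DNAJC27 the controls lay close together and both knockouts were lower, but neither separation held under scaling by total reads.

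Other class C genes lay higher in both knockouts. DNAJC12, a co-chaperone of aromatic amino acid hydroxylases, read 107, 36.9, 152 and 176. The knockout mean was 1.53-fold that of control A, and the authors' deposited table gave 1.18 (SE 0.69, DESeq2 adjusted p = 0.463). DNAJC24, a J-domain protein of diphthamide synthesis, read 439, 349, 545 and 526. DNAJC22 read 513, 20.1, 628 and 631, and DNAJC21, a ribosome biogenesis factor, read 2064, 396, 2271 and 2292. In DNAJC21 and DNAJC22 the knockouts averaged 1.11-fold and 1.23-fold over control A while control B was far lower. DNAJC7, which binds both HSP70 and HSP90, read 1079.7, 652, 1154 and 1155. DNAJC9, a histone chaperone, read 1099.7, 1158, 1397 and 1191, and DNAJC18 read 145, 148, 173 and 173. Of 26 measured class C genes 9 lay higher than both controls (background 23.7%), 4 lower (background 21.2%) and 13 overlapped, with a median log2 fold change of 0.12 in the authors' deposited table.

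Of the further HSP70 genes, HSPA12A and HSPA2 differed strongly between the controls, and HSPA14 differed little. HSPA12A, a distant relative of the family, read 845, 90.5, 477 and 544, so that the knockouts lay between the controls, 1.66-fold below control A and 5.64-fold above control B. HSPA2, an HSP70 best known from spermatogenesis, read 219, 25.7, 171 and 229. HSPA14, which works with the ribosome, read 648, 519.7, 776 and 732, with both knockouts highest. The authors' deposited table lists log2 fold changes of 0.12 for HSPA12A (SE 0.97), 0.70 for HSPA2 (SE 1.03) and 0.37 for HSPA14 (SE 0.25).

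Heat shock factor 1, the regulator of the inducible genes, read 737, 1031, 935 and 939. Heat shock factor 2, its partner with roles in development, read 296, 478, 315 and 344. For both factors the knockouts lay between the controls. HSF1 and HSF2 are listed in the authors' deposited table with log2 fold changes of 0.09 (SE 0.29, DESeq2 adjusted p = 0.899) and -0.23 (SE 0.39, DESeq2 adjusted p = 0.797). These are transcript levels, and the activity of the factors was not measured.

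Setting the same knockouts against each control in turn separated the genes further. Against control A, 0 of 66 chaperone genes differed 2-fold, beside 5.68% of all genes, and the median difference was 0.06 on log2(normalized count + 1). Against control B, 27 of 66 differed 2-fold (40.9%, beside 45.8% of all genes), with a median of -0.17. Between the controls themselves 25 of 66 differed 2-fold, 16 higher and 9 lower in control B, and between the knockouts 0 did.

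**Figure D3:**
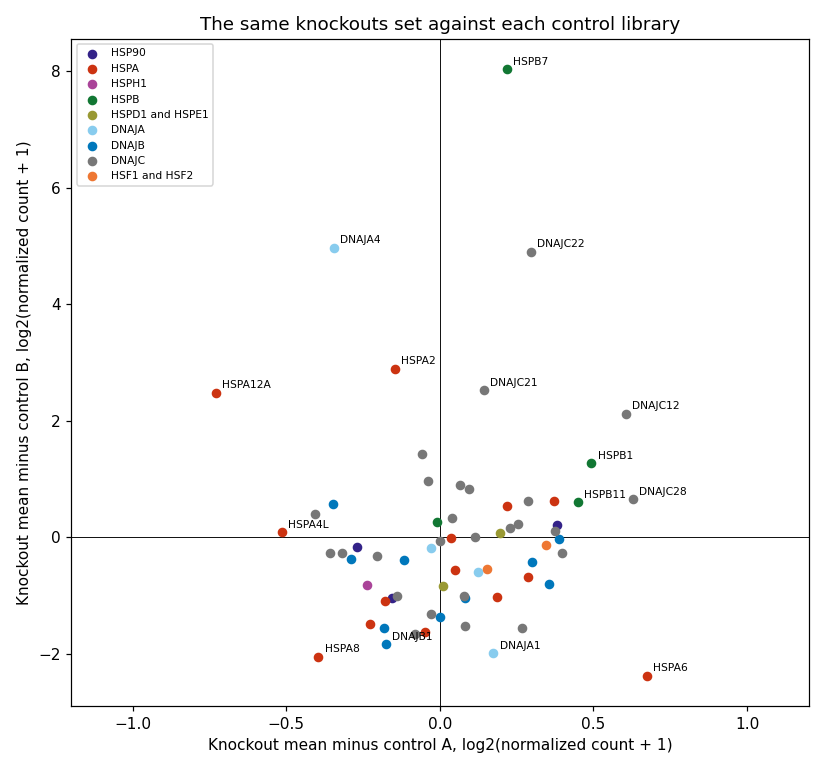
For each of the 66 chaperone genes, the mean of the knockouts minus control A (horizontal axis) is plotted against the same mean minus control B (vertical axis), both in log2(normalized count + 1) and on different scales. Horizontally all points lie within 1, that is within 2-fold, while vertically they spread from -2.37 (HSPA6) past 4.97 (DNAJA4); the highest point, HSPB7, rests on a single read in control B.

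On the recovered reads, limma across all 4 libraries called 0 genes of 24981 and 0 of 70 chaperone genes, with 509 genes and 0 chaperones at an unadjusted p under 0.05. Without control B it again called 0 genes of 23920, and 15 of 71 chaperone genes had an unadjusted p under 0.05 (21.1%; background 14.3%). Control A is then a lone library, assumed to vary as the knockouts do. The background takes every gene whose mean reached 1. It holds a larger part of low genes than the chaperone genes do, so the shares are not of like genes. HSPB1 (0.49), HSPB11 (0.45), HSP90B1 (0.38), HSPA13 (0.37), DNAJC10 (0.37) and DNAJC12 (0.60) were higher there, in limma's log2 difference. HSF1 (0.35), DNAJB12 (0.39), DNAJB2 (0.35) and HSPA9 (0.29) were also higher, with opposite signs against control B. HSPA8 (-0.40), HSPA12A (-0.73), HSPA4L (-0.51), DNAJC2 (-0.41) and DNAJB4 (-0.35) were lower, and of these only HSPA8 was also lower against control B. The lowest limma adjusted p among chaperones was 0.261, so 0 passed.

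Without control A, limma called 30 of 70 chaperone genes (42.9%; background 33.8%), 12 higher and 18 lower. With control B as the lone control, these calls contrast that library with the knockouts and assume it varies as the knockouts do. Their background again holds a larger part of low genes. They included HSPA8 (-2.05), DNAJA1 (-1.99), DNAJB1 (-1.83), DNAJC5 (-1.66), HSPA1A (-1.49) and HSP90AB1 (-1.04) on the lower side. On the higher side were DNAJA4 (4.97), DNAJC22 (4.90), HSPA2 (2.90) and DNAJC21 (2.52). Against control A, 13 of the 30 had the opposite sign, among them DNAJA1, DNAJA4, HSPA2, HSPA12A, HSPA5 and HSPA9.

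The chaperone genes together took 1.18%, 1.58%, 1.15% and 1.12% of the recovered reads of control A, control B, knockout A and knockout B. The HSPA genes took 0.392%, 0.739%, 0.368% and 0.361%, and HSPA8 alone 0.155%, 0.377%, 0.111% and 0.12%. The HSP90 genes were more even, at 0.406%, 0.424%, 0.375% and 0.367%. The HSPB genes took 0.0194%, 0.00857%, 0.0249% and 0.0234%. Shares of reads favour long transcripts and do not depend on the size factors.

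**Figure D4:**
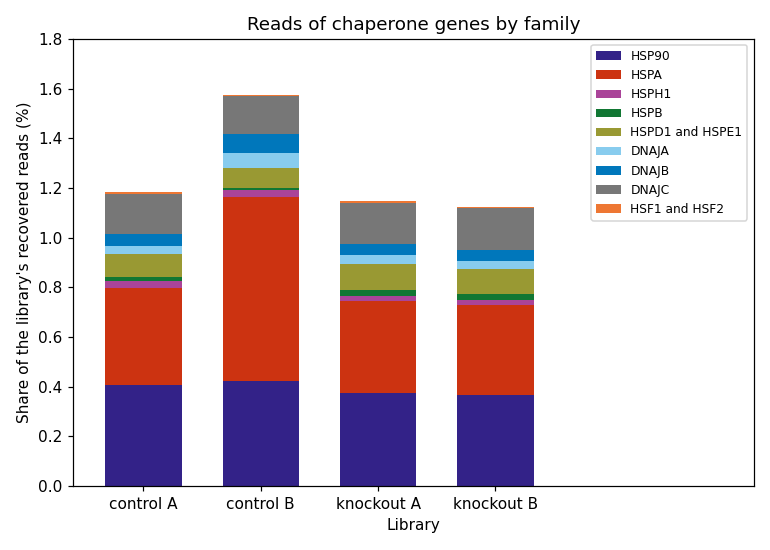
Stacked bars give the percent of each library's recovered reads that fell on the chaperone genes, by family, 1 bar per library. Control B reaches 1.58%, through its HSPA segment of 0.739%, and the other 3 libraries lie between 1.12% and 1.18%.

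Ratios within a library leave the scaling out. Reads of HSPA8 outnumbered those of HSPB1 by 14.4, 77.7, 7.11 and 8.55 times in the order given above, which follows from HSPA8 being lower and HSPB1 higher in both knockouts. The ratio of DNAJB1 to HSPB1 was 0.969, 5.24, 0.55 and 0.676, for the same reason lower in both knockouts. HSP90AB1 exceeded HSP90AA1 by 1.03, 2.05, 1.09 and 1.15 times, with the knockouts between the controls. The ratio of HSPA5 to HSP90B1, both of the endoplasmic reticulum, was 1.55, 3.18, 1.38 and 1.34, with both knockouts lowest. These pairs were picked from the genes above after their values were seen.

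Other genes of the chaperone system were read from 8 lists, 112 genes with 111 found. A single one was called in the authors' deposited table: LONP1, the main protease of the mitochondrial matrix, at 1451, 1153, 2942 and 2308, with a log2 fold change of 1.01 (SE 0.28, DESeq2 adjusted p = 0.0442). It rose, as the sole call among 18 genes of mitochondrial proteostasis. Over all genes with an adjusted p, 0.559% were called, so a single call in these lists is near that share. The call was absent under an adjusted p limit of 0.01. It was also absent from limma over all 4 libraries, but that fit called 0 of 24981 genes, CFL1 included. Of the 16 HSP90 co-chaperones, 15 HSP70 co-chaperones, 15 CCT and prefoldin subunits, 25 genes of folding in the endoplasmic reticulum, 6 further J-domain genes, 8 further small heat shock and heat shock factor genes and 12 other heat-inducible genes, 0 were called.

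The most abundant genes of those lists showed no common direction, and they do not stand for their lists. In the authors' deposited table, 11 of 15 HSP70 co-chaperones were below 0 and 4 above (median -0.41). Of 25 genes of folding in the endoplasmic reticulum, 20 were below and 5 above (median -0.43). From control A alone their median differences were 0.06 and 0.15, and from control B alone -0.70 and -0.80. The other heat-inducible genes had a median log2 fold change of 0.07. PTGES3 (p23), which stabilises closed HSP90, read 9721, 13202, 8089 and 9283. HYOU1, an HSP110 relative of the endoplasmic reticulum, read 4102, 12823, 4574 and 4434. CCT5, a subunit of the chaperonin that folds actin and tubulin, read 13456, 9977, 14865 and 13669.6, with a log2 fold change of 0.28 (SE 0.25) in the authors' deposited table. CCT5 differed from most of its list there: of 14 measured CCT and prefoldin genes, 11 were below 0 and 3 above (median -0.34). The median difference of that list was 0.08 from control A alone and -0.63 from control B alone. CANX, the calnexin lectin of the endoplasmic reticulum, overlapped between groups. HSF4 read 308, 53.6, 272 and 183. SQSTM1 (p62), an autophagy receptor, read 7572, 67129.7, 5112 and 4998, and the authors' deposited table gave it -2.89 (SE 0.90, DESeq2 adjusted p = 0.117).

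Genes with base means under 10 were left out of the counts over 66 genes, though 4 of them (DNAJB8, DNAJB13, HSPB6 and HSPB9) passed the lower limit of limma over all libraries. Those under 10 were the testis-rich DNAJB3, DNAJB8, DNAJB13 and HSPB9, the muscle-rich HSPB2, HSPB3 and HSPB6, and HSPA7. HSPA12B was just above that limit and even across libraries, at 11.8, 12.3, 12.4 and 11.9.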

How the data were processed

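The data are 1 result table of DESeq2, made by the authors. STAR, RSEM, cutadapt, FastQC and hg19 are named, without versions, in the submitters' processing notes. The base mean is a signal, counts divided by size factors and averaged over 4 libraries, as deposited by the authors. The fold change and its standard error are log2 values fitted by the authors. The Wald score and the p-value columns are also the authors' deposited values, and calls use their adjusted p under 0.05.

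Whole reads of each library were solved from the base means, after the data were seen: combinations were sought whose weighted sum gave the printed digits and whose negative binomial fit returned the deposited fold change within 1e-06 log2, or within 1e-08 at base means of at least 10000. Where no combination met that limit, a sole combination giving the printed digits was accepted. Together this gave reads for 30819 of 30831 genes with a base mean above 0 and for all 74 chaperone genes. At base means of at least 10, 16640 of the 17298 genes with reads met the fold change limit. HSPA7, HSPB2 and DNAJB8, with base means under 10, missed it, and HSPB3 and DNAJB3 were set to 0 from their base means. As a check, false base means were made by shifting real ones in 4 abundance ranges, and 0 matches came from 150, 150, 150 and 157. RSEM estimates counts, so these are rounded estimates.

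Limma 3.58.1 (R 4.3.3) with a trended prior took log2(normalized count + 1) of genes whose mean reached 1, and adding 1 understates changes of low genes. It was checked on simulated data whose means came from control A and the knockouts. That simulation held no outlying control, so it did not cover data with a library like control B. Python 3.11.15, numpy 2.4.6, pandas 2.3.3, scipy 1.17.1 and matplotlib 3.10.9 were used. Transcript lengths came from GENCODE. The genes and lists were chosen with earlier results of these data known. Named are CFL1, the 3 most abundant genes of each family, the 6 lowest unadjusted p in each direction, the 5 largest separations in each direction and the 5 largest differences between controls (base mean at least 100 for the last of these and for separations), and in other lists the called or else the most abundant gene, of which 1 is not reported here; further genes were named after their values were seen. Alternatives were the call limit, filters, the pseudocount, voom, scaling by total reads and leaving out each library.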

Additional observations from a re-analysis of the deposited data

How the results depend on the processing

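The count of 0 called chaperone genes held under the other filters and was not run under scaling by total reads. An adjusted p limit of 0.01 could not have raised it. Limma and voom over all 4 libraries called 0 genes of any kind, CFL1 included, so their 0 for chaperones could not test it. When single libraries were left out the count ran from 0 to 30, the 30 arising without control A. Leaving out any other library gave 0 calls among all genes, so those counts could not test it either. The 1 called gene of the other lists, LONP1, became 0 at an adjusted p under 0.01 and without independent filtering. It was also 0 with limma (pseudocounts 1 and 0.1, and a mean of at least 10) and voom, where no gene at all was called. For these lists, leaving out single libraries gave 0 to 41. The 41 arose without control A, where control B is the lone control. That fit also called a large share of all genes, given above as its background, so the 41 does not single out these lists. Leaving out any other library gave 0 for these lists, again with no gene of any kind called. The median log2 fold change of -0.11 ran from -0.17 to 0.057 when single libraries were left out, positive without control B, and was 0.073 under scaling by total reads, chosen after the data were seen. When single libraries were left out, genes with every remaining knockout above every remaining control numbered 20 to 33, and genes below 16 to 36. Without control A these were 40.9% and 54.5% of the chaperone genes beside 47.0% and 46.0% of all genes. Without control B they were 50% and 30.3% beside 40.4% and 38.3%. Without knockout A they were 30.3% and 30.3% beside 30.3% and 27.2%, and without knockout B 30.3% and 24.2% beside 30.3% and 28.8%. Over all 66 measured genes, 29 had opposite signs against the controls. Of the 34 named by rule, 12 changed sign when 1 control was left out. With control A left out and then with control B left out, the log2 differences were -1.99 and 0.17 for DNAJA1, -0.59 and 0.12 for DNAJA3, 4.97 and -0.35 for DNAJA4, -1.04 and 0.082 for DNAJB11, -0.14 and 0.35 for HSF1, -0.54 and 0.15 for HSF2, 2.48 and -0.73 for HSPA12A, 2.90 and -0.15 for HSPA2, -1.02 and 0.19 for HSPA5, -0.69 and 0.29 for HSPA9, 0.27 and -0.0089 for HSPB8, and -0.83 and 0.011 for HSPE1. Arrays of 2 units stood in 31.2% of the chaperone promoters and in 11.6% of all promoters. The cause of these shifts was not tested. No paired analysis was possible because the recovered libraries carry no replicate numbers. With 2 libraries a group, of which control B stood far from the other 3, small differences were not detectable and large ones could be missed. HSPA8 at a log2 fold change of -1.44 was not called (SE 0.57, DESeq2 adjusted p = 0.256). Nor was HSPB7 at 1.22 (SE 2.43, DESeq2 adjusted p = 0.828). A count of 0 calls therefore does not mean that the chaperone genes were unchanged.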
